A study of Mus musculus with 3 samples.

Results

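N1E-115 is a mouse neuroblastoma line, and its control cells in this study carried the plasmid pEGFP-C1, which makes green fluorescent protein alone. RNA of these EGFP control cells at 20 mM glucose (high glucose, 2 arrays) was set against RNA of EGFP control cells at 5 mM glucose (low glucose, 1 array). In both groups 2 µg of plasmid was given 24 h after plating, and RNA was taken 48 h after that. RNA of 3 dishes was pooled, per the series text, and 10 µg was labelled with Alexa555. The other channel of each array, Alexa647, held RNA of cells that carried EGFP fused to the C-terminus of the sodium channel NaV1.2 (NaV1.2CT), and serves here only as a second reading of the same arrays. The culture medium in the labels' growth protocol is a low glucose one for both groups, and only the sample labels and the series text give the 20 mM level. Separate cultures are not stated for the 2 high glucose arrays. The p-values rest on the spread between those 2 arrays, which may be technical. They hold no spread between low glucose arrays or between array series. The low glucose array belongs to another array series than the high glucose arrays, so glucose and array series cannot be told apart.

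The members are gene spots whose raw minus background intensity in the EGFP channel was above the 95th percentile of the empty spots on every array. That limit was 83.7 and 93.3 on the high glucose arrays, against 78.1 on the low glucose array. Of 21766 gene spots, 19933 were kept, which are 19930 of 21761 probes and hold 15723 named genes. A further 161 gene spots were above the limit on both high glucose arrays but not on the low glucose array, and 184 were above it on the low glucose array alone. Median raw intensity was 1172 and 1106 on the high glucose arrays, against 1706 on the low glucose array. By mean raw intensity no kept spot was saturated, with a maximum of 57089 and 48838 at high glucose, against 48018 at low glucose. A spot mean cannot show whether single pixels were saturated. Intensities below are raw minus background before scaling, and differences are log2, high minus low glucose, after quantile scaling of the 3 arrays, so a difference need not equal the ratio of the intensities beside it.

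Glucose enters cells through transporters of the SLC2 family, is trapped by hexokinases and is broken down by glycolysis to pyruvate and lactate. Glucose phosphates also activate the paired transcription factors ChREBP (Mlxipl) or MondoA with Mlx, which bind carbohydrate response elements in promoters such as that of Txnip. Txnip and Arrdc4 encode arrestin domain proteins, and Txnip limits glucose uptake. N1E-115 cells are known for tyrosine hydroxylase, the enzyme that starts catecholamine synthesis.

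The Txnip promoter is shown because it carries the element by which glucose is known to act on this gene. The 250 bases before its start site lie at chr3:96557707-96557956 on the plus strand of GRCm38.p6 (RefSeq), 5′ to 3′. Capitals mark the match, 85 to 69 bases before the start site, to a carbohydrate response element pattern, 2 copies of CACGNG with 5 bases between them.

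Txnip promoter: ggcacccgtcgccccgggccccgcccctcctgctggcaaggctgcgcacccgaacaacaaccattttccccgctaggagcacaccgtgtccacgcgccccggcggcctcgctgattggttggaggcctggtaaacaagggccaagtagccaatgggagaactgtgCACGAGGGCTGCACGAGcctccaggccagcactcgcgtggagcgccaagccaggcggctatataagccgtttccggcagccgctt

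The pattern was searched on both strands of the 250 bases before the start site and was present in 15 of 32851 promoters, which is 0.0457%. The Txnip spot had an intensity of 18297 and 15240 at high glucose, against 21665 at low glucose. It was bright on all arrays, and the high glucose replicates lay on either side of the low glucose array after scaling. The difference was -0.05 ± 0.28 (SE, 2 arrays against 1) and did not pass the test of limma, a linear model that shares the spread across probes (Benjamini-Hochberg adjusted p = 0.91). Of the 14 genes whose promoters held the pattern, 9 had a kept probe, their differences had a median of -0.05 and 3 passed limma, against 22.9% of all kept probes.

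The GAPDH control spots measure 1 target printed many times, and 218 of 231 were kept. GAPDH is a glycolytic enzyme widely used as a loading reference. Their median intensity was 15769 and 13805 at high glucose, against 15317 at low glucose, over the control spots of each array. Their differences had a median of 0.36, an SD of 0.83 and a range of -3.20 to 2.59. The 19930 gene probes had a median of 0.06 and an SD of 0.88, so copies of 1 target spread nearly as widely between glucose levels as different genes did. The arrays were printed in 48 blocks, and all 218 kept control spots lay in blocks 3, 4, 7 and 8. Gene spots of those blocks had medians of 0.71, 0.45, 0.09 and 0.89, so the control spots do not sample the whole array. The SD of the control spots ran from 0.46 in block 4 to 1.24 in block 8. Between the high glucose replicates, the SD was only 0.251 for the control spots and 0.403 for the gene probes. Among bright spots, at a mean scaled log2 level of 13 or more, the SD was 0.67 for 195 control spots and 0.64 for 3066 gene probes.

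**Figure D1:**
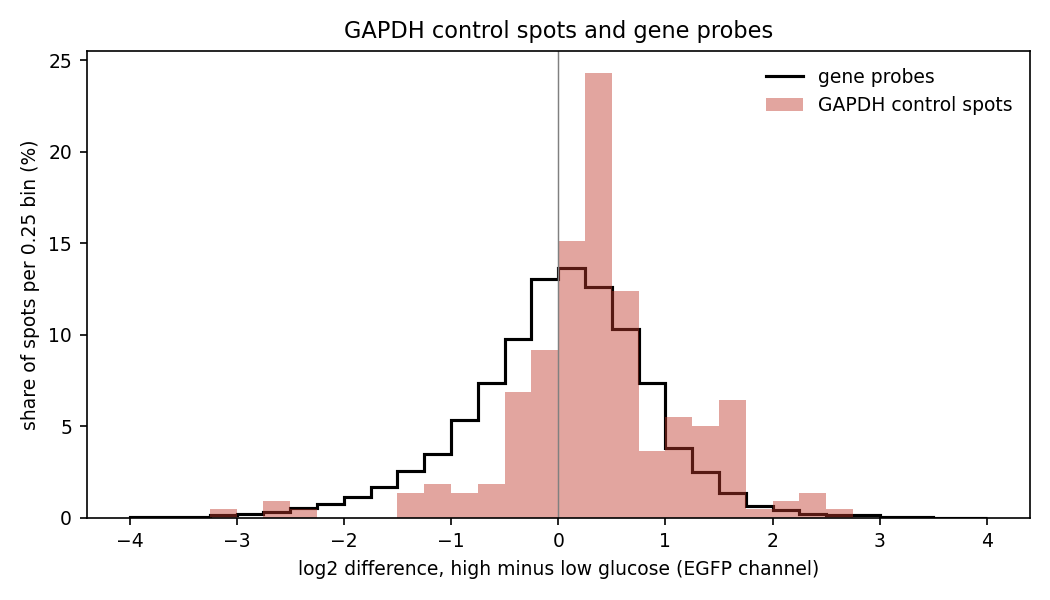
Share of spots (y axis, percent per bin of 0.25) against the log2 difference of high minus low glucose (x axis) for 218 GAPDH control spots (red) and 19930 gene probes (black line); both spread over several units, with medians of 0.36 and 0.06, and gene probes beyond 4 in either direction lie outside the axis.

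limma passed 4557 of 19930 probes at an adjusted p under 0.05, which is 22.9%, with 2208 higher (11.1%) and 2349 lower (11.8%) at high glucose. The p-value that marked this threshold passed 47 control spots as higher and 11 as lower, 26.6% of the 218. Past 1.5-fold on both high glucose arrays were 6932 probes (34.8%), 3621 higher and 3311 lower, and 34.4% of control spots. Over all brightness levels, control spots thus passed about as often as gene probes of the whole array, but they lay in blocks 3, 4, 7 and 8 alone. There limma passed as higher 146 of 362 gene probes in block 3 and 57 of 375 in block 4. It passed 46 of 362 in block 7 and 187 of 380 in block 8. As lower it passed 15, 17, 19 and 37 probes of those blocks. Among the bright spots, 24.1% of control spots reached the limma threshold, against 13.2% of gene probes of the whole array. The middle 90% of the control spots, which lay in 4 of the 48 print blocks, ran from -0.999 to 1.64. Of the gene probes, 449 (2.25%) lay above that range and 2224 (11.2%) below it, and 2555 (12.8%) lay outside it and passed limma.

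Differences also moved with the place of a spot on the array. The arrays were printed in 48 blocks of 484 positions. Print block accounted for 26.8% of the variance of the high minus low difference, and position within a block for 19.6%. For the difference between the high glucose replicates those shares were 17.5% and 3.83%. The shares are not adjusted for the number of groups, so those of 48 blocks and of 484 positions cannot be compared with each other. Block medians ran from -1.06 in block 43 to 0.89 in block 8. Neighbouring spots had a Pearson correlation of difference of 0.58 over 18209 pairs on shared arrays. For 2 probes of the same gene, the Spearman correlation of difference was -0.02 over 1282 pairs, and 49.5% of the pairs had the same sign. The Spearman correlation of their level was 0.049, so a spot's name may not tell what the spot measured, and every gene named here stands for the spot of that name. The NaV1.2CT channel of the same arrays gave nearly the same differences (Pearson r = 0.99 over 19531 probes) and passed 3926 of the 4557 probes in the same direction.

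The 12 largest differences in each direction were taken among named probes that passed limma, went the same way on both high glucose arrays and kept that way after each print block was centred. They were chosen by size, so their values are a description. Fam83e had an intensity of 24971 and 28484 at high glucose, against 87.7 at low glucose, a difference of 8.35. Cd247, the zeta chain of the T cell receptor, had 22271 and 27121 at high glucose, against 101 at low glucose, a difference of 8.05. Both were bright spots on the high glucose arrays and lay close to the empty limit on the low glucose array. Wnt2b, a Wnt ligand, differed by 5.32 and Ptger1, a prostaglandin E2 receptor, by 4.58. A further 7 were Snrpc, a U1 spliceosome protein, Cyp20a1, Gpr3, St6galnac4, Nnmt, Impa1 and Htra2, between 3.92 and 4.42. Of the 12, 4 lay in print block 8, which had the highest block median. Ptger1 and Gpr3 were neighbouring spots in a row. Fam83e and Cyp20a1 were neighbours in a column, and so were Nnmt and Htra2.

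Zfp445, a zinc finger gene, had an intensity of 191 and 157 at high glucose, against 9026 at low glucose, a difference of -5.21. Klhl24 had 194 and 253 at high glucose, against 6533 at low glucose, a difference of -4.33. Its other kept probes gave 0.24 and -0.19, so the Klhl24 difference belongs to 1 of its 3 spots. Tbx20, a heart transcription factor, gave -4.04 at one probe and -0.31 at the other. Others of the 12 were 4833421G17Rik, 1700037H04Rik, 8430406H22Rik, Nudt11, Fut9, Ctu1, Pdpn and Zzef1, between -4.74 and -3.96. Of these 12, 5 lay in print block 5, whose median was -0.75, and among them Klhl24 and 8430406H22Rik were neighbours in a column.

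Gene families were described by 24 lists, with the brightest kept probe for each gene. Over all 15723 named genes, 1687 were higher, 1869 were lower and the median difference was 0.05. Of 22 kept genes that respond to glucose through ChREBP and MondoA, 3 were higher, 1 was lower and 18 did not pass, with a median of 0.20. Scd1, which desaturates fatty acids, had 405 and 532 at high glucose, against 229 at low glucose, a difference of 1.43 ± 0.31 (SE, adjusted p = 0.015). Me1, malic enzyme, differed by 1.06 and Fgf21, a metabolic hormone, by 1.03. Pklr, the liver pyruvate kinase and a classical ChREBP target, had 4679 and 4578 at high glucose, against 20947 at low glucose, a difference of -1.76 ± 0.27 (adjusted p = 0.0045). After centring each print block and then each position, Scd1 (adjusted p = 0.28), Me1 (0.56) and Fgf21 (0.42) no longer passed, and Pklr did (-1.36, adjusted p = 0.017). Arrdc4 at -0.10, Fasn, the fatty acid synthase, at 0.23, and Klf10 at 0.23 did not pass, and neither did Mlx at 0.16 or Mlxipl at -0.96. Of the 22 genes, 1 lay outside the middle 90% of the GAPDH control spots.

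Of 8 glucose transporter genes, none was higher and 2 were lower. They were the fructose transporter Slc2a5 at -0.94 and the sodium-glucose cotransporter Slc5a2 at -1.15. Neither passed after centring of print blocks (adjusted p = 0.46 and 0.063) or of blocks and positions (0.13 and 0.052). Slc2a3, the neuronal glucose transporter, had 1346 and 962 at high glucose, against 1519 at low glucose, and did not pass (0.18 ± 0.30). Slc2a1, the common glucose transporter, had no probe.

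Glycolysis and lactate genes had the lowest list median, -0.50. Of 28 kept genes, 9 were lower, 1 was higher and 18 did not pass. Ldha, a lactate dehydrogenase subunit, had 757 and 584 at high glucose, against 8311 at low glucose, a difference of -3.09 ± 0.29 (adjusted p = 8.3e-04). Ldhb, the other main subunit, had 955 and 1224 at high glucose, against 12925 at low glucose, a difference of -3.06 ± 0.31 (adjusted p = 0.0010). Both high glucose replicates were far below the low glucose array at these spots. The enolase Eno3 (-2.45), the hexokinase Hk1 (-2.21), the mutase Pgam2 (-1.82), the phosphofructokinase Pfkl (-1.72), the aldolase Aldoc (-1.38) and the lactate carrier Slc16a1 (-1.01) were also lower. The phosphofructokinase Pfkm, with 6230 and 5751 at high glucose, against 4559 at low glucose, was higher (1.00 ± 0.27, adjusted p = 0.034). Hk2, Eno1, Eno2, Pgk1 and Pfkp did not pass, at differences of 0.23, -0.30, -0.70, -0.16 and -0.21. Aldoa and Pkm had no probe. The other 2 probes of Hk1 gave -0.49 and 0.39, that of Eno3 gave 0.25 and that of Hk2 gave 0.38, and none of them passed.

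The Gapdh gene spot had 4908 and 2156 at high glucose, against 21000 at low glucose, a difference of -2.27 ± 0.42 (adjusted p = 0.0085). The 218 control spots of the same name had a median of 0.36, and 165 of them were above 0. After print block centring the gene spot was at -1.97 and still passed (adjusted p = 0.019), and the control median was at -0.12. Both were then below 0, but they remained far apart.

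**Figure D2:**
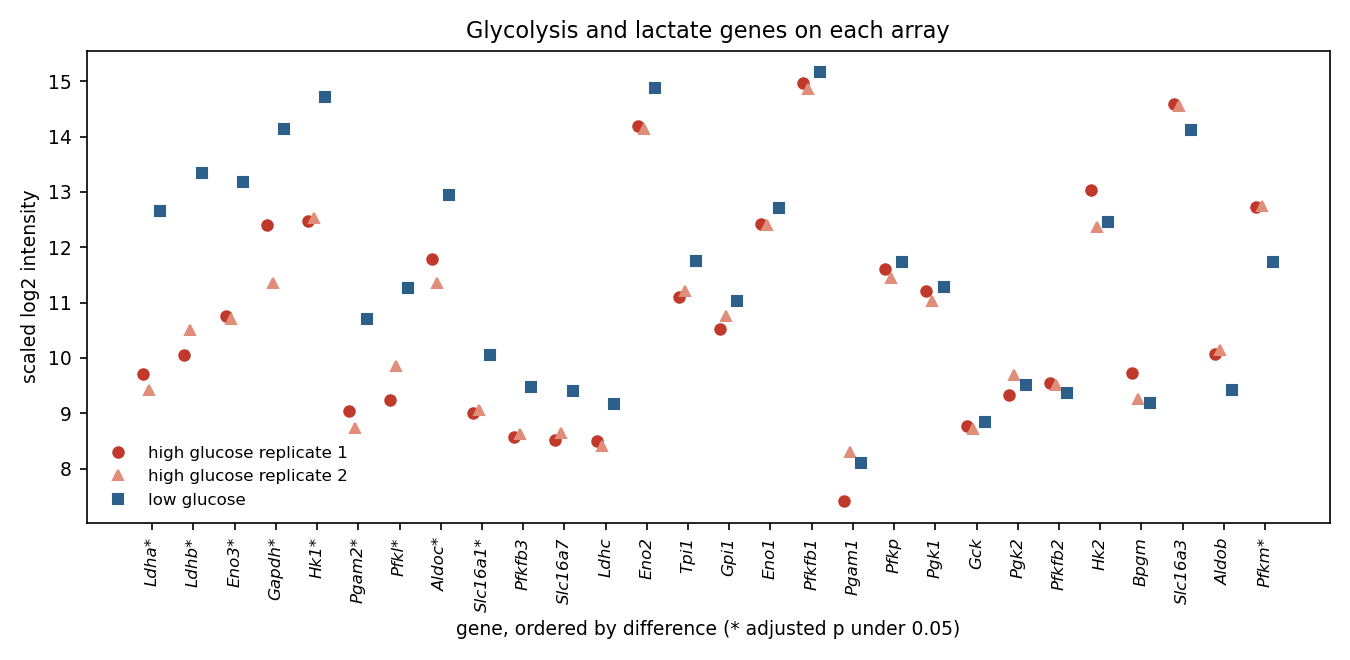
Scaled log2 intensity (y axis) of the 28 glycolysis and lactate genes (x axis, ordered by difference, asterisk for adjusted p under 0.05) on the high glucose replicates (red circles and orange triangles) and the low glucose array (blue squares); Ldha and Ldhb at the left differ by -3.09 and -3.06, and Pfkm at the right by 1.00.

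These genes also shared a place on the array. Of the 28, 21 lay in the first row of the print blocks, at positions 17 to 21, against 847 of all 15723 named genes in a first row. All 963 kept probes of the first rows had a median of -0.50, with 31.9% lower and 6.33% higher, whereas the 18967 probes of the other rows had a median of 0.08, with 10.8% lower and 11.3% higher. The first row was singled out after its values were seen, and it was not the only low row. Row 22, the last row and 1 of those other rows, had a median of -1.15 over 71 probes, with 50.7% lower and 0% higher. The 21 glycolysis genes there had a median of -0.70, with 8 lower (38.1%), and the 7 elsewhere had a median of -0.25, with 1 lower. The 202 probes at positions 17 to 21 that are no glycolysis gene had a median of -0.56, with 29.7% lower. After centring each print block and then each position, the glycolysis median was -0.15, and 6 genes were lower and 1 was higher, all 7 in the direction they had before. Ldha (-1.57), Ldhb (-1.99), Eno3 (-1.96), Hk1 (-1.47), Pfkl (-1.13) and Slc16a1 (-1.19) were the 6, and Pfkm (1.34) was the other. Gapdh did not pass then (-1.18, adjusted p = 0.068). The 12 GAPDH control spots of first rows had a median of -0.02 and the other 206 a median of 0.39. The part of position in the glycolysis result was not tested further.

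**Figure D3:**
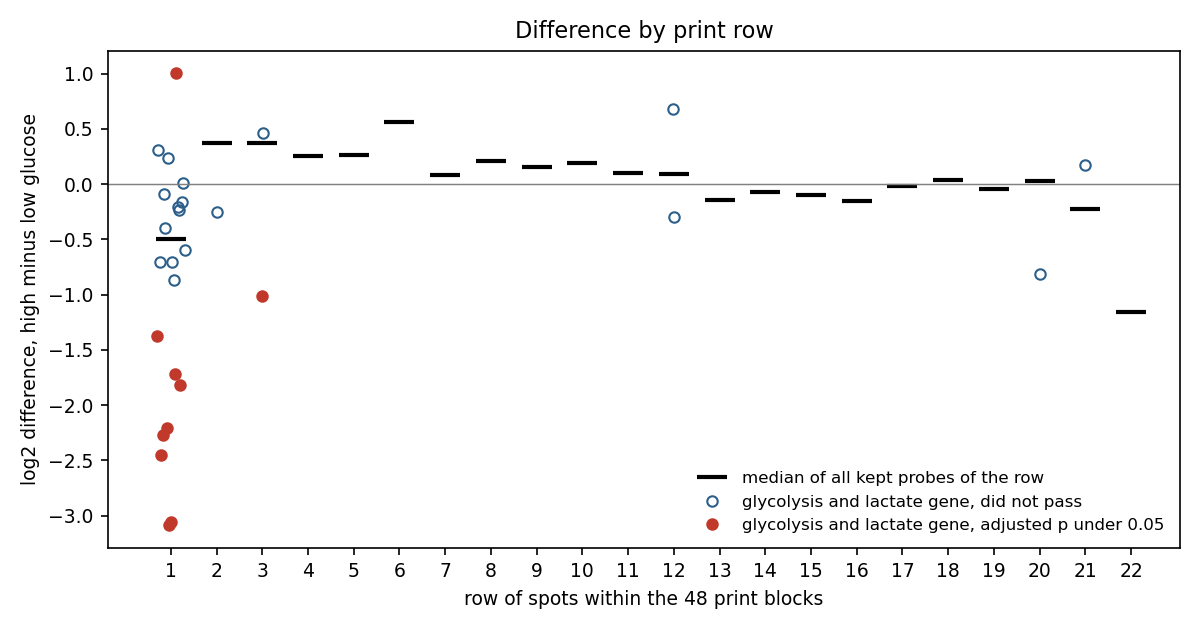
Log2 difference of high minus low glucose (y axis) by row of spots within the 48 print blocks (x axis), with the median of all kept probes of each row (black bars) and the 28 glycolysis and lactate genes (circles, filled red where the adjusted p was under 0.05); 21 of the 28 lie in row 1, whose median over all its probes is -0.50.

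Of 15 genes of the pentose phosphate, polyol and hexosamine pathways, 1 passed, Gnpnat1 of UDP-GlcNAc synthesis, at -1.61, and G6pdx, the entry enzyme of the pentose phosphate pathway, did not (-0.89). Of 18 gluconeogenesis and glycogen genes, 4 were lower and none higher. They were the phosphorylase kinase subunits Phka1 (-3.22) and Phkg1 (-1.63), the kinase Gsk3b (-0.99) and the mitochondrial enzyme Pck2 (-1.01). In this list 9 genes lay in a first row, and after centring of blocks and positions 1 gene was still lower, Phka1. Its other probes gave -1.12 and -0.07.

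Of 22 genes of pyruvate dehydrogenase and the TCA cycle, 4 were higher and 2 lower, with a median of -0.05. Pdk2, a kinase that switches pyruvate dehydrogenase off, had 1492 and 2189 at high glucose, against 798 at low glucose (1.76 ± 0.34, adjusted p = 0.010). Pdk4, another such kinase, had 1189 and 966 at high glucose, against 606 at low glucose (1.38 ± 0.28, adjusted p = 0.012). Sdhb of succinate dehydrogenase differed by 1.38 and Mdh2 by 1.15. Ogdh (-1.46) and Idh1 (-1.19) were lower. After centring of blocks and positions, Pdk2, Sdhb and Pdk4 still passed, at 1.43, 1.19 and 1.64, and Ogdh (adjusted p = 0.12) and Idh1 did not. After centring on neighbouring spots none of Pdk2, Sdhb and Pdk4 passed (adjusted p = 0.057, 0.43 and 0.21). Ogdh did pass then (-1.32, adjusted p = 0.040), and Idh1 did not (adjusted p = 0.057). Of 59 genes of oxidative phosphorylation, 8 were higher and 8 lower, with a median of 0.06. Atp5j2 (2.09) was highest and Cox7a1 (-2.75) lowest.

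Insulin, AMPK and mTOR signalling genes had a median of 0.39, with 6 of 31 higher and 3 lower. Pdpk1, the kinase that activates AKT, had 11320 and 8380 at high glucose, against 3190 at low glucose (2.20 ± 0.29, adjusted p = 0.0024). Akt2 (1.32) and Tsc2 (1.10) were also higher, and the kinase Mtor (-1.80), Sesn2 (-1.48) and Pik3r2 (-0.90) were lower. Insr, the insulin receptor, did not pass (0.39). After centring of blocks and positions the median was 0.04, and 3 genes passed, all higher.

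Oxidative stress genes had the highest list median, 0.57, with 8 of 27 higher and 2 lower. Prdx4, a peroxiredoxin of the endoplasmic reticulum, had 747 and 608 at high glucose, against 183 at low glucose (2.28 ± 0.28, adjusted p = 0.0020). It lay in print block 8. It passed after centring of blocks and positions (0.99, adjusted p = 0.043) but not after centring on neighbouring spots (0.15, adjusted p = 0.75). Gpx1 (1.65), the glutathione reductase Gsr (1.46), Gclc (1.39), Txnrd1 (1.37), Slc7a11 (1.33), Gpx4 (1.25) and Gpx3 (1.09) were higher. Srxn1 (-2.09) and the brighter probe of Nqo1 (-1.37) were lower, and the other Nqo1 probe passed the other way (1.83, adjusted p = 0.0039). After centring of blocks and positions the list median was 0.05, with 2 genes higher and 1 lower. Gpx1 was then at -0.03, and Nqo1 did not pass at either probe. After neighbour centring both Nqo1 probes passed as lower, the brighter at -1.27 (adjusted p = 0.019) and the other at -0.98 (adjusted p = 0.042).

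Of 28 genes of glucose-regulated chaperones and the unfolded protein response, 4 were higher and 3 lower, with a median of 0.02. The chaperone Canx (2.21) and the transcription factor Xbp1 (1.26) were higher, and Edem1 (-1.26) of ER-associated degradation was lower. Hspa5, the glucose-regulated chaperone BiP, had 27348 and 31923 at high glucose, against 34839 at low glucose, and did not pass (-0.18 ± 0.28). Of 24 cholesterol genes, 2 were higher and 2 lower. Acat2 (3.02), which makes acetoacetyl-CoA, and Srebf2 (-3.25), the main transcription factor of cholesterol synthesis, were the extremes. Srebf2 lay in print block 20, whose median was -0.90. After centring of blocks and positions Acat2 was at 2.65 and Srebf2 at -1.27. Of 17 hypoxia genes, 2 were higher and 2 lower, and Ddit4 did not pass (-0.09). With blocks and positions centred, 3 of the 7 passing chaperone genes, 3 of the 4 cholesterol genes and 1 of the 4 hypoxia genes still passed in the same direction.

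**Figure D4:**
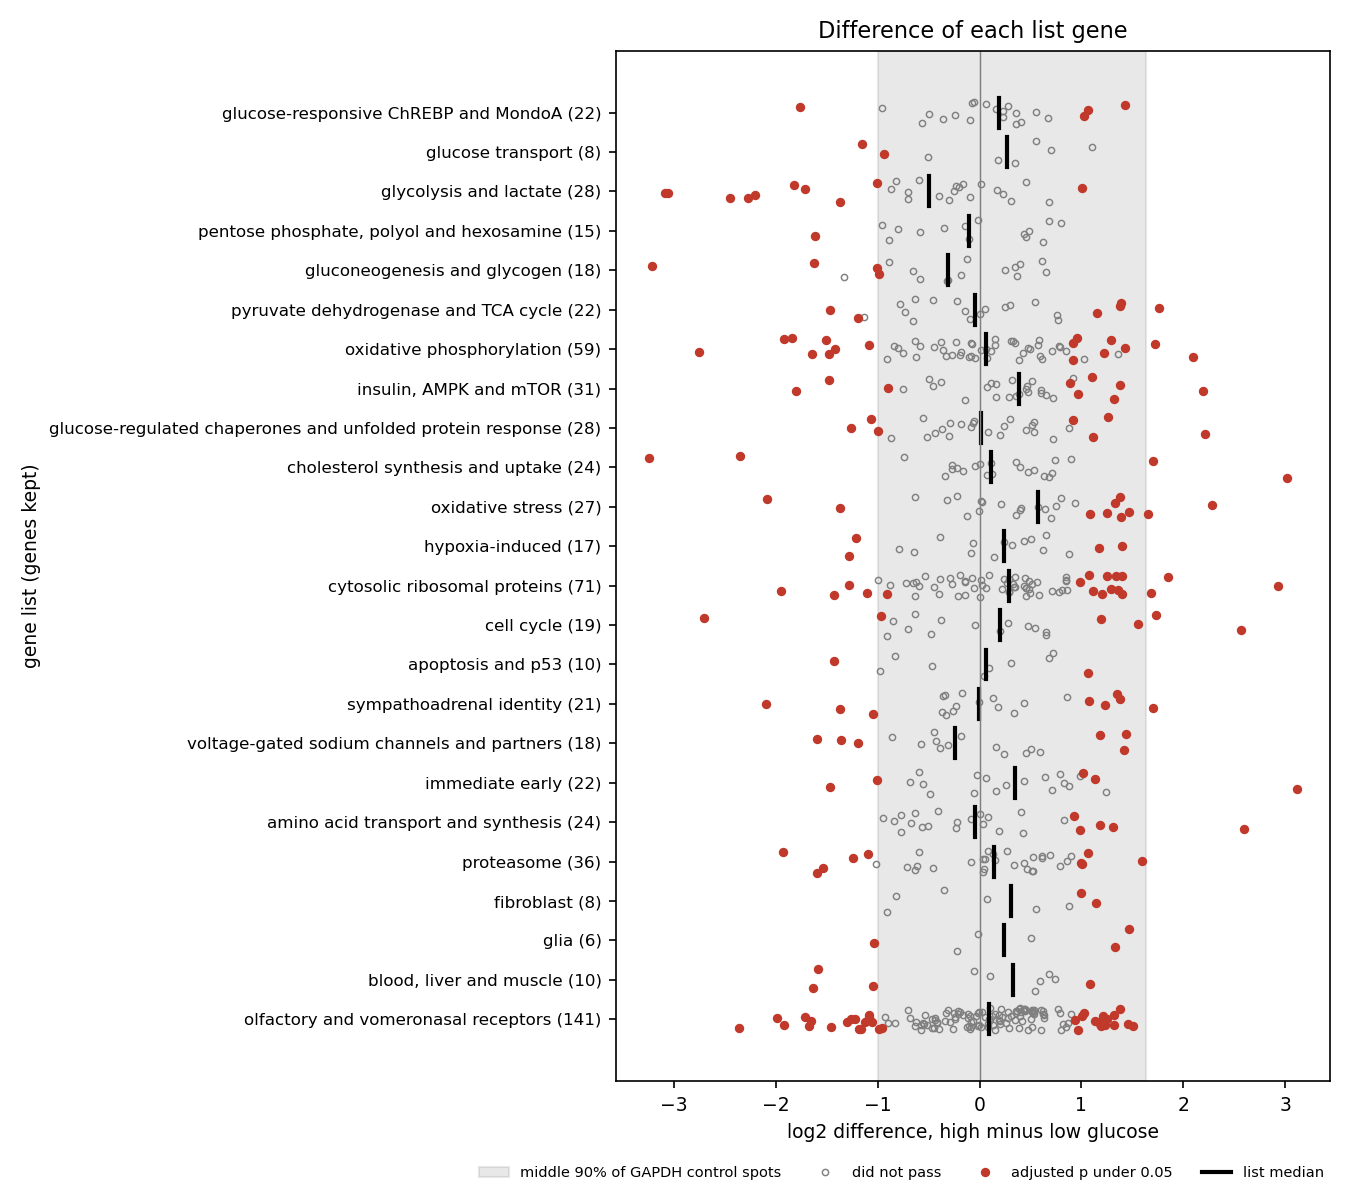
Log2 difference of high minus low glucose (x axis) for each gene of the 24 lists (y axis, genes kept in brackets), filled where the adjusted p was under 0.05, with list medians as black bars and the middle 90% of the GAPDH control spots shaded; medians run from -0.50 (glycolysis and lactate) to 0.57 (oxidative stress).

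Cytosolic ribosomal protein genes, which cells express strongly, had 13 of 71 higher and 5 lower, a median of 0.29 and a median brightness percentile of 50.9 among named genes. Rpl41 differed by 2.93 and Rpl27a by -1.95, although both encode parts of the same subunit. Of 19 cell cycle genes, 4 were higher and 2 lower, with Cenpa, the centromeric histone, at 2.57 and Rrm1, of ribonucleotide reductase, at -2.70. Of 24 amino acid transport and synthesis genes, 5 were higher, led by the mitochondrial aminotransferase Got2 (2.59), and none was lower. The other Got2 probe did not pass (-1.21), and after neighbour centring the first was at 0.04 (adjusted p = 0.93). After centring of blocks and positions 2 genes of this list were higher and 1 lower. Of 36 proteasome genes, 4 were higher and 5 lower, and of 10 apoptosis and p53 genes, 1 was higher and 1 lower. With blocks and positions centred, 8 of the 18 passing ribosomal genes, 3 of the 6 cell cycle genes, 4 of the 9 proteasome genes and 0 of the 2 apoptosis genes still passed in the same direction. Of 22 immediate early genes, 3 were higher, led by Egr4 (3.12), and 2 were lower, Fos (-1.47) and Jun (-1.01). Egr4 lay in print block 8. It passed after centring of blocks and positions (1.81, adjusted p = 0.0041) but not after neighbour centring (0.60, adjusted p = 0.16). Jun had 93.6 and 105 at high glucose, against 241 at low glucose, close to the empty limit, and its difference was above 0 after print block centring (0.047), neighbour centring (0.22) and centring of blocks and positions (0.18).

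Of 21 sympathoadrenal genes, which mark the neuroblastoma lineage, 5 were higher and 3 lower, with a median of 0.00. Th had 7882 and 5061 at high glucose, against 3811 at low glucose (1.35 ± 0.31, adjusted p = 0.019). The factor Gata3 (1.70) and the intermediate filament gene Prph (1.38) were also higher, and the neurofilament gene Nefl (-2.10) and Gata2 (-1.37) were lower. After centring of blocks and positions, 1 of the 8 passing genes still passed, Nefl (-2.00), and the list median was 0.33. Th (0.67, adjusted p = 0.14), Gata3 (adjusted p = 0.21), Prph (0.19) and Gata2 (0.075) did not. Dbh had no probe. Of 18 sodium channel genes and partners, 3 were higher and 3 lower, and Scn2a, which encodes NaV1.2, had 574 and 417 at high glucose, against 1680 at low glucose (-1.20 ± 0.30, adjusted p = 0.024). Once blocks and positions were centred, Scn2a did not pass (-0.52, adjusted p = 0.28), and 2 of the 6 passing genes of this list did.

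The labelled cell type could not be read from brightness. Sympathoadrenal genes had a median percentile of 56.6, and markers of other cells had 58.2 (8 fibroblast genes), 66.2 (6 glial genes) and 58.3 (10 blood, liver and muscle genes). Median scaled log2 levels of the glial markers were 11.9 and 12.2 at high glucose, against 11.4 at low glucose, and those of the fibroblast markers were 11.2 and 11.2, against 10.9. Among these other markers 2 fibroblast, 2 glial and 1 blood, liver or muscle gene were higher, and 0, 1 and 3 were lower. Their part in the results above was not tested. The 141 olfactory and vomeronasal receptor genes, which neuroblastoma cells are not expected to express, had a percentile of 25.6, and 16 were higher and 18 lower. That is 24.1% passing, against 22.9% of all probes.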

How the data were processed

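The authors deposited, per the file headers, mean raw and mean background intensity per spot and channel. The scanner and quantification software are not given in the sources used here. The deposited z-scores were not used, since they compare the channels of 1 array. Raw minus background EGFP channel intensities (values under 1 set to 1) were taken to log2, quantile scaled over 21766 gene spots and filtered against the empty spots, and spots of one probe were averaged. Gene names came from the files, updated through a table of GRCm38.p6. limma 3.58.1 in R 4.3.3 (lmFit, eBayes, Benjamini-Hochberg over 19930 probes, threshold 0.05, two-sided) set 2 arrays against 1. The residual degrees of freedom were 1 and the prior added 7.19, so the test assumes that the low glucose array varies like the others. In simulated data of 2 arrays against 1 the sizes were recovered, but unchanged probes made up more of the calls than the threshold allows, so calls here are lenient. The simulated spots were independent, with equal spread on all arrays and no effect of print block, position or array series. The simulation therefore cannot tell how many calls such effects add here. Named genes were the 12 largest in each direction, up to 3 passing genes per list and direction, and a set of glucose and cell type genes. Further passing list members named in the report were chosen after their values were seen. So were Mlx, Mlxipl and the first and last print rows. The members and lists were chosen with earlier results of these data known. Some genes that the rule names are not reported here. The number of arrays limits the precision.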

Additional observations from a re-analysis of the deposited data

How the results depend on the processing

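Against 2208 higher and 2349 lower probes by limma, GAPDH centring gave 979 higher and 4341 lower, print block centring 1382 higher and no filter 1398 higher. GAPDH centring rests on control spots of only 4 print blocks. Of the alternatives chosen after seeing the data, neighbour centring gave 777 higher, and print block and position centring gave 918 higher and 1219 lower. At 1.5-fold on both high glucose arrays, 3621 higher became 1499 with GAPDH centring, 2400 with print block centring, 1829 with neighbour centring and 1959 with print block and position centring, and 3311 lower became 5811 with GAPDH centring. At 2-fold there were 1428 higher and 1725 lower. The fold counts ran from 4750 to 4874 higher and from 4290 to 4298 lower without 1 high glucose replicate. The GAPDH control median of 0.36 was 0.59 with median centring, -0.12 with print block centring, -0.12 with neighbour centring and -0.13 with print block and position centring, and 0.31 to 0.45 without 1 high glucose replicate. Of the 4557 calls, 2597 remained in the same direction after print block centring, 1765 after neighbour centring and 1581 after print block and position centring. List medians turned sign in 15 of 24 lists with GAPDH centring, 6 with print block centring, 11 with neighbour centring and 11 with print block and position centring. The glycolysis median was below 0 in all of these. Of 146 named probes, print block centring turned Jun (0.047). Print block and position centring turned Idh1 (0.057), Sesn2 (0.083), Atf5 (-0.10), Gpx1 (-0.027) and Jun (0.18). Neighbour centring turned Jun (0.22), Scn8a (-0.67), Postn (-0.91) and Vmn2r122 (-0.21). The causes were not tested. No paired analysis was possible because only 1 low glucose array exists and its label carries no number. Without either high glucose replicate the comparison is 1 array against 1, a value with no test.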
